A study of Rattus norvegicus with 31 samples.

Results

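Insl3, the relaxin-family peptide hormone of Leydig cells, and the receptors Lhcgr and Prlr were followed across the arrays of rat testes. All probe sets that the platform annotation gives to these 3 genes, of 14217 genes it names, were taken, which are 6 of the 31042 probe sets other than controls. Insl3 had 1 probe set (1388241_at), Lhcgr had 2 (1387423_at and 1369033_at) and Prlr had 3 (1370384_a_at, 1370789_a_at and 1369493_at), and the probe set of highest mean over the 31 arrays, given first here, is called the main one. The rats were LBNF1 males aged 25 to 27 weeks, and every group had received 6 Gy to the lower abdomen. Hormone ablation plus estradiol (6 arrays) combined a GnRH antagonist, an androgen receptor antagonist and estradiol, and the labels also call it FSH supplementation. Hormone ablation (11 arrays) combined a GnRH antagonist with the androgen receptor antagonist flutamide. Sham treatment gave 14 arrays, of which the sample descriptions call 10 control and 4 irradiated, although every title calls them irradiated. The labels name each array a biological replicate of testis total RNA.

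Leydig cells lie between the seminiferous tubules and make testosterone when pituitary LH binds the receptor Lhcgr, which acts through a stimulatory G protein and cyclic AMP. A GnRH antagonist lowers LH and FSH, and flutamide blocks the androgen receptor. Insl3 signals through the receptor Rxfp2, is required for the transabdominal phase of testis descent, and in adults is used as a marker of mature Leydig cells. Prlr, a class I cytokine receptor, signals through Jak2 and Stat5, and in rodents prolactin supports the response of Leydig cells to LH.

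The promoters of Insl3 and Lhcgr are shown because the main probe sets of these genes moved in opposite directions under ablation. Each is 250 bases before to 50 bases after a RefSeq start on GRCr8, plus strand, at chr16:18432939-18433238 for Insl3 and chr6:11415165-11415464 for Lhcgr. Capitals mark the nuclear receptor core hexamer AGGTCA, searched on both strands.
Insl3: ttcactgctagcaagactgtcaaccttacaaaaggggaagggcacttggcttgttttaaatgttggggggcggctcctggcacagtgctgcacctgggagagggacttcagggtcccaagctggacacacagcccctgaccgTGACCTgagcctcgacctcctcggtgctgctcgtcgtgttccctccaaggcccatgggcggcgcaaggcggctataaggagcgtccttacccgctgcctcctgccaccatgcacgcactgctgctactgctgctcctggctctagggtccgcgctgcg
Lhcgr: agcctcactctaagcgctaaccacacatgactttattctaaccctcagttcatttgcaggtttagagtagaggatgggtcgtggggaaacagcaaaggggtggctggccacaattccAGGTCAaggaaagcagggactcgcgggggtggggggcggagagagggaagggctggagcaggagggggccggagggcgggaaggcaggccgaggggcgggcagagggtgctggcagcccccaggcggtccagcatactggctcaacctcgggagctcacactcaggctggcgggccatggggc
The Insl3 window held 1 hexamer, on the minus strand (printed as TGACCT) with its first base at -108 from the start, and the Lhcgr window held 1, on the plus strand at -133. Neither of the Prlr windows, at chr2:60861515-60861814 and chr2:60909409-60909708 on the plus strand, held it. The hexamer stood in 16.2% of all 33469 such windows, so it is a common match. The longer elements that contain or resemble it were searched on both strands too. The Nr5a1 site CAAGGTCA (1.52% of windows), the Nr4a1 site AAAGGTCA (1.43%), the cyclic AMP response element TGACGTCA (1.83%) and the estrogen response element, AGGTCA and TGACCT with 3 bases between them (0.00896%), were not in these letters in any of the 4 windows. The Stat5 site TTCNNNGAA, found in 8.87% of windows, had 1 match, in the second Prlr window at -176.

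The values were MAS5 signals on a logarithmic scale, read as log2, and differences were tested with limma over the 21269 probe sets kept by a filter on low values. A probe set is called at a Benjamini-Hochberg adjusted p under 0.05. All 6 probe sets of the 3 genes passed the filter, which asks for a value above the 40th percentile of its own array (-1.93 to -1.75) in at least 6 arrays, and 5 of them lay above that level in all 31 arrays. Array medians lay between -1.44 and -1.24. The estradiol arrays were deposited later than the other 25, so the estradiol group and the deposit cannot be told apart in any comparison with them. In whole testis, fewer Leydig cells and less RNA per Leydig cell cannot be told apart either. The ablation and sham groups each serve in more than 1 comparison, so the comparisons share arrays.

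With ablation alone, 5 of the 6 probe sets were called against sham (19.4% of all kept probe sets were called). Insl3 and all 3 Prlr probe sets fell (10.3% of all fell) and the main Lhcgr probe set rose (9.15% of all rose). With estradiol added, 1 of the 6 was called against ablation alone (5.52% of all), and it was Insl3, which fell further (4.92% of all fell). Ablation plus estradiol against sham gave 4 of 6 (14.5% of all), with Insl3 and 2 Prlr probe sets lower (10.4% of all) and the main Lhcgr probe set higher (4.15% of all). In that comparison higher calls were 28.5% of all calls as deposited and 47.2% after quantile normalization. For ablation plus estradiol against ablation they were 10.7% as deposited and 24.0% after it.

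Insl3, the ligand, stepped down from group to group with no overlap. Its log2 signal was -1.88, -1.49, -3.82, -1.45, -2.09 and -1.82 in the 6 arrays of ablation plus estradiol. In the 11 ablation arrays it ran from -0.98 to 0.14, with a median of -0.18, and in the 14 sham arrays from 3.48 to 4.99, with a median of 4.36. Every estradiol array lay below every ablation array, and every ablation array lay below every sham array. In 3 of the 6 estradiol arrays the signal was not above the filter level, whereas it was above that level in 11 of 11 ablation and 14 of 14 sham arrays. The means were -2.09 ± 0.88 (SD, n = 6) with ablation plus estradiol, -0.21 ± 0.32 (n = 11) with ablation and 4.28 ± 0.40 (n = 14) with sham.

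**Figure D1:**
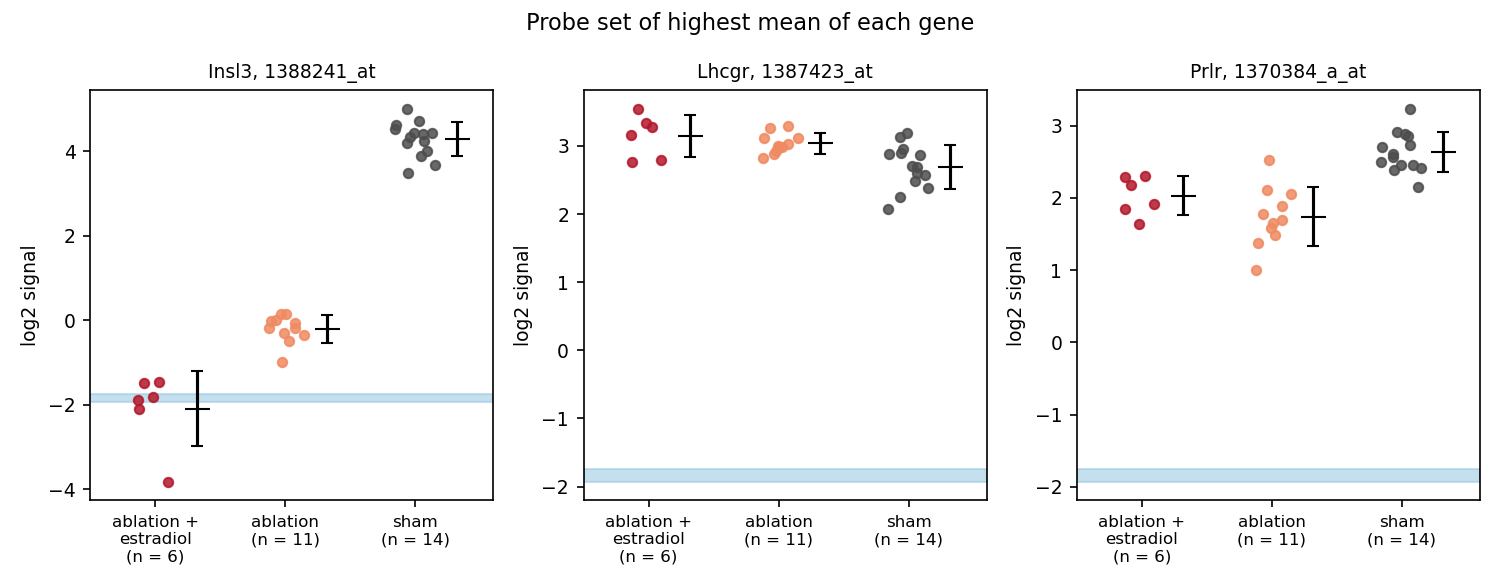
Log2 signal of the main probe set of Insl3, Lhcgr and Prlr in single arrays, with ablation plus estradiol left, ablation in the middle and sham right; crosses with bars are the mean and SD, and the blue band is the range of the arrays' filter levels (-1.93 to -1.75). Insl3 fell in 2 separate steps, Lhcgr was slightly above sham in both ablated groups, and Prlr was below sham in both.

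Under ablation Insl3 was 22.4-fold lower than in sham (95% interval 17.3 to 29.0), a log2 change of -4.49 ± 0.18 (SE, limma adjusted p = 1.79e-20). Of all 21269 kept probe sets, 2 had a change this low, which is 0.0094%; the other was probe set 1387034_at, which has no single gene symbol here and was chosen after its values were seen. Probe sets with all ablation arrays below all sham arrays made up 1.4% of those kept. Adding estradiol to ablation lowered Insl3 further, with a log2 change of -1.88 ± 0.23 (adjusted p = 1.16e-06). Values below the filter level carry part of this step. With those values raised to the level the change was -1.52, and without estradiol replicate 3, the array at -3.82, it was -1.54 ± 0.18 (adjusted p = 8.9e-07). Complete separation downward in this comparison was found for 1.35% of kept probe sets. Against sham, Insl3 with ablation plus estradiol had a log2 change of -6.37 ± 0.22 (adjusted p = 2.06e-22), and of -6.01 ± 0.16 with values raised to the filter level. Since the estradiol mean lies below that level, no fold is given for these comparisons.

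From its lowest to its highest array, Insl3 spanned 2.17-fold with ablation and 2.84-fold with sham. No such fold is given for ablation plus estradiol, where the lowest array, replicate 3 at -3.82, lay below its filter level of -1.90. The other arrays of that group lay between -2.09 and -1.45. Sham arrays described as irradiated averaged 4.30 ± 0.25 (SD, n = 4) and those described as control 4.27 ± 0.46 (n = 10), a difference of 0.03 ± 0.22 (SE). In that comparison limma called 0 of the 21269 kept probe sets, with 513 at an unadjusted p under 0.05.

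Near Insl3 in the RefSeq annotation lie Jak3, a tyrosine kinase of cytokine receptors, and B3gnt3, which overlaps Insl3 on the opposite strand and had no probe set named here. Jak3 averaged -1.73 ± 0.51 with ablation plus estradiol, -1.60 ± 0.69 with ablation and -1.22 ± 0.58 with sham, and passed the test in no comparison (adjusted p = 0.875 for estradiol plus ablation against ablation and 0.265 for ablation against sham). Of 8 relaxin-family genes listed, ligands and receptors other than Insl3, 3 had a probe set named here and only Rln1, the relaxin gene, passed the filter. Its change was -0.02 ± 0.16 for ablation against sham (adjusted p = 0.953) and 0.42 ± 0.20 for ablation plus estradiol against ablation (adjusted p = 0.291). The receptor Rxfp2 had no probe set named here.

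Lhcgr, the LH receptor, rose slightly in its main probe set in both ablated groups. That probe set read 3.16, 3.54, 2.79, 3.28, 2.76 and 3.34 with ablation plus estradiol. With ablation it ran from 2.82 to 3.29 (median 3.00), and with sham from 2.08 to 3.19 (median 2.70). The groups overlapped, and the highest sham arrays lay within the range of both ablated groups. Still, all 11 ablation arrays exceeded the sham mean, and 2 of them exceeded every sham array. The mean was 3.14 ± 0.31 (SD, n = 6) with ablation plus estradiol, 3.04 ± 0.15 (n = 11) with ablation and 2.69 ± 0.32 (n = 14) with sham.

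The main Lhcgr probe set was 1.27-fold higher with ablation than with sham, a log2 change of 0.35 ± 0.11 (95% interval 0.13 to 0.56, adjusted p = 0.0183). With ablation plus estradiol it was 1.37-fold higher than with sham, a log2 change of 0.46 ± 0.13 (0.19 to 0.72, adjusted p = 0.0125), and 3 of the 6 arrays exceeded every sham array. Estradiol plus ablation against ablation gave 0.11 ± 0.13 (-0.16 to 0.38, adjusted p = 0.754), so a change there was not detected. Against only the 4 sham arrays described as irradiated, the changes missed the threshold, with 0.30 (adjusted p = 0.208) for ablation plus estradiol and 0.19 (adjusted p = 0.368) for ablation. So did ablation plus estradiol against sham without estradiol replicate 2 (0.38, adjusted p = 0.0596) and ablation against sham without the extreme arrays of the first principal component (0.32, adjusted p = 0.0741). Sham arrays described as irradiated averaged 2.85 ± 0.11 (n = 4) and those described as control 2.63 ± 0.36 (n = 10).

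The other Lhcgr probe set, 1369033_at, did not show this rise. It read 0.72, -0.71, -1.12, 0.20, 0.38 and -0.45 with ablation plus estradiol, -1.44 to 0.28 (median -0.78) with ablation and -1.86 to 0.76 (median -0.56) with sham, so the 3 groups overlapped almost wholly. Its changes were -0.23 ± 0.25 for ablation against sham (adjusted p = 0.574) and 0.50 ± 0.32 for ablation plus estradiol against ablation (adjusted p = 0.461). The 95% interval of its change with ablation was -0.74 to 0.28. The main probe set changed by 0.35, with an interval of 0.13 to 0.56. The intervals overlap, and the difference between the probe sets was not tested. Within sham this probe set spanned 6.16-fold, while the main one spanned 2.16-fold.

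**Figure D2:**
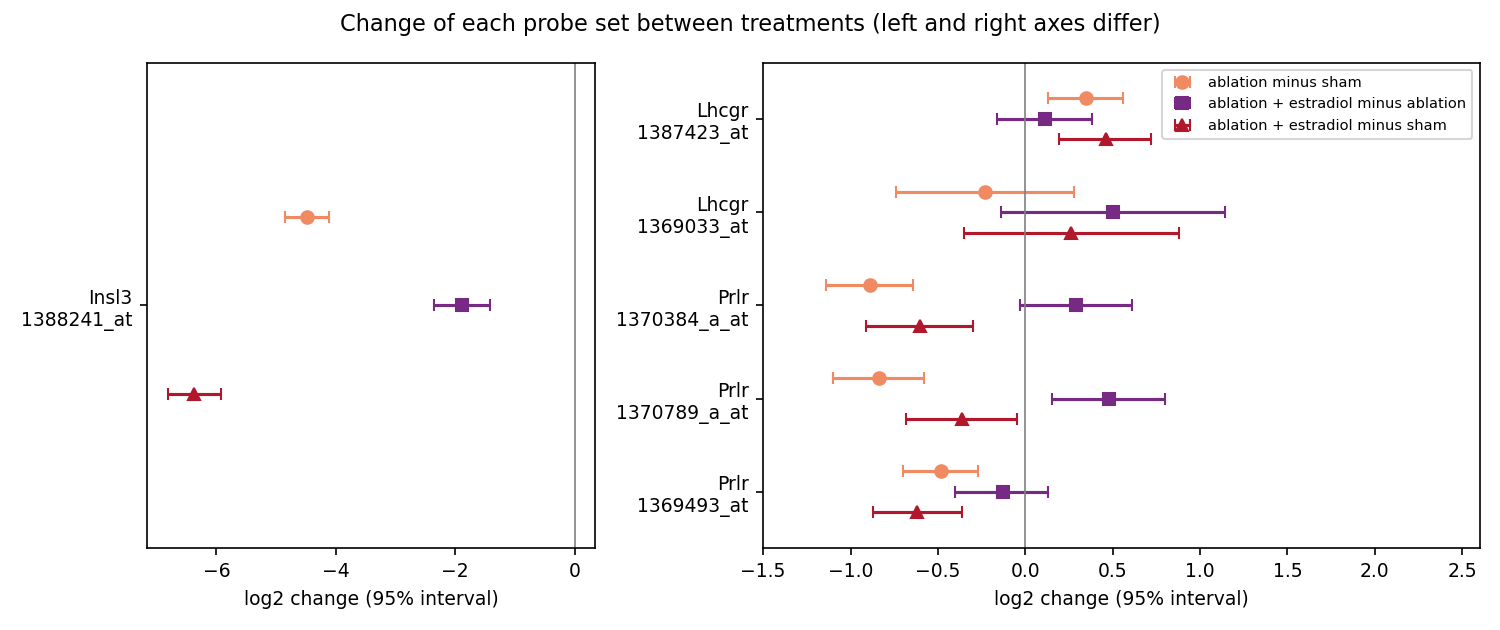
Log2 change with its 95% interval for each probe set, with Insl3 on the left on a wider axis and the Lhcgr and Prlr probe sets on the right. The 3 intervals of Insl3 lie far below 0, those of Lhcgr 1387423_at against sham lie above 0, and all 3 Prlr probe sets lie below 0 for ablation against sham.

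Prlr, the prolactin receptor, fell with ablation in all 3 of its probe sets. The main one read 2.29, 2.18, 1.92, 2.30, 1.85 and 1.64 with ablation plus estradiol, 1.00 to 2.52 (median 1.69) with ablation and 2.15 to 3.23 (median 2.59) with sham. Of the 11 ablation arrays, 10 lay below every sham array, and replicate 7, at 2.52, lay among them. The estradiol arrays sat within the ablation range, and 3 of the 6 lay below every sham array. The mean was 2.03 ± 0.27 (SD, n = 6) with ablation plus estradiol, 1.74 ± 0.41 (n = 11) with ablation and 2.63 ± 0.28 (n = 14) with sham.

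Against sham, ablation lowered the main Prlr probe set 1.85-fold, a log2 change of -0.89 ± 0.12 (adjusted p = 1.16e-06). Ablation plus estradiol lowered it 1.52-fold, a log2 change of -0.60 ± 0.15 (adjusted p = 0.00448). This last call was lost when same-numbered arrays were treated as blocks, as given in the closing section. Adding estradiol to ablation gave 0.29 ± 0.16 (95% interval -0.03 to 0.61, adjusted p = 0.372).

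Probe set 1370789_a_at of Prlr read 0.40, 0.18, 0.09, 0.51, 0.59 and 0.04 with ablation plus estradiol, -0.65 to 0.02 (median -0.14) with ablation and -0.07 to 1.45 (median 0.54) with sham. All 6 estradiol arrays lay above all 11 ablation arrays, a separation upward that 0.193% of kept probe sets had. The change of 0.48 ± 0.16 nevertheless missed the threshold over all probe sets (p = 0.00526, adjusted p = 0.0773). It passed in 4 other settings and stayed uncalled in 7, and it passed in 1 of the 31 runs that each left out 1 array. Where it passed, the adjusted p was 0.0105 to 0.0484. This probe set also followed a measure of RNA reach, given below, that the estradiol arrays lack. For ablation against sham this probe set was 1.79-fold lower (-0.84 ± 0.13, adjusted p = 4.83e-06), and for ablation plus estradiol against sham it gave -0.36 ± 0.15 (adjusted p = 0.118).

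Probe set 1369493_at of Prlr read -1.08, -0.82, -1.52, -0.95, -1.51 and -1.31 with ablation plus estradiol, -1.46 to -0.51 (median -1.09) with ablation and -0.79 to -0.13 (median -0.65) with sham. All 6 estradiol arrays and 10 of the 11 ablation arrays lay below every sham array. Complete separation downward of ablation plus estradiol from sham was found for 2.15% of kept probe sets. Probe set 1369493_at fell 1.40-fold with ablation (-0.48 ± 0.10, adjusted p = 0.000805) and 1.53-fold with ablation plus estradiol against sham (-0.62 ± 0.13, adjusted p = 0.000516). Between ablation plus estradiol and ablation it changed by -0.13 ± 0.13 (adjusted p = 0.676), opposite in sign to the other Prlr probe sets, none of which passed there.

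**Figure D3:**
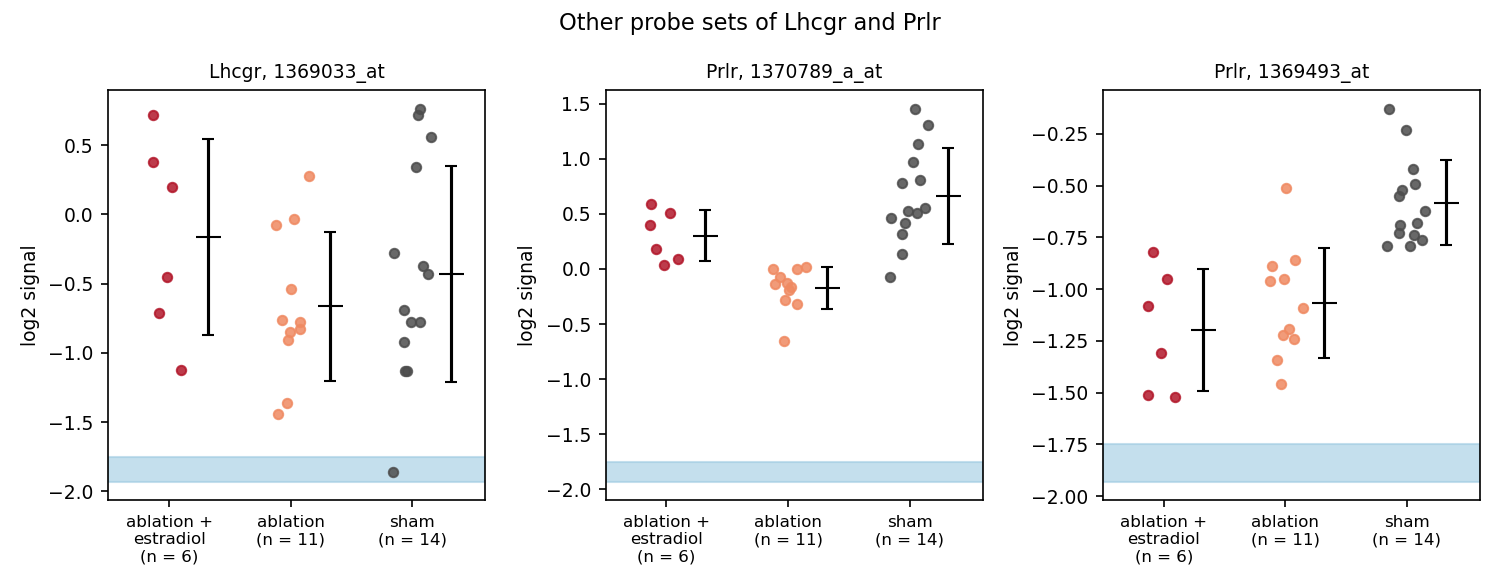
Log2 signal of the other probe sets of Lhcgr and Prlr in single arrays, with the groups, crosses and blue band drawn as for the main probe sets. The groups of Lhcgr 1369033_at overlap, the estradiol arrays of Prlr 1370789_a_at lie above all ablation arrays, and both ablated groups of Prlr 1369493_at lie mostly below sham.

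Single arrays were compared by each probe set's deviation from its group mean, in 27 correlations adjusted together, with values permuted within groups. The main probe sets of the 3 genes did not move together from array to array. Over 31 arrays Pearson's r was 0.21 (rho 0.14, permutation p = 0.339) for Insl3 with Lhcgr, 0.04 (rho 0.16, p = 0.833) for Insl3 with Prlr and 0.08 (rho 0.11, p = 0.649) for Lhcgr with Prlr. Probe sets of 1 gene did not move together either: r was -0.07 (rho -0.16) between the Lhcgr probe sets and -0.03 to 0.18 between the Prlr probe sets.

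In contrast, Lhcgr 1369033_at and Prlr 1370789_a_at rose and fell together across arrays, with r = 0.84 and rho = 0.81 (permutation p = 1e-05, the smallest that 100000 draws can give, adjusted p = 0.00027). The value without the 2 farthest arrays was 0.79, and within groups r was 0.82 with ablation plus estradiol, 0.57 with ablation and 0.94 with sham. Both also followed the difference between the 3' and 5' control probe sets of beta-actin, a measure of how far toward the 5' end the labelled RNA reaches, in the 25 arrays that have it. That difference was 1.19 to 1.91 (median 1.43) with ablation and 0.46 to 2.41 (median 1.33) with sham. Its r was -0.76 with Lhcgr 1369033_at (rho -0.79, p = 5e-05, adjusted p = 0.00063, and -0.78 without the 2 farthest arrays) and -0.78 with Prlr 1370789_a_at (rho -0.64, p = 7e-05, adjusted p = 0.00063, and -0.72 without them). Within groups these were -0.66 with ablation and -0.79 with sham for Lhcgr 1369033_at, and -0.39 with ablation and -0.85 with sham for Prlr 1370789_a_at.

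Over the same 25 arrays the main probe sets showed no such relation, with r of -0.09 for Insl3, 0.24 for Lhcgr and 0.13 for Prlr. Within ablation and within sham, r was -0.36 and -0.01 for Insl3, -0.26 and 0.32 for Lhcgr, and 0.61 and -0.12 for Prlr. The values within single groups were not tested. With the beta-actin difference as a covariate, added after the data were seen, ablation against sham gave -0.06 (adjusted p = 0.847) for Lhcgr 1369033_at and -0.75 for Prlr 1370789_a_at, while the main probe sets gave -4.47 for Insl3, 0.33 (adjusted p = 0.023) for Lhcgr and -0.90 for Prlr. The estradiol arrays have no such control values, so this measure was not available for them here. The upward separation of Prlr 1370789_a_at in the estradiol arrays from ablation could therefore not be adjusted for it.

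**Figure D4:**
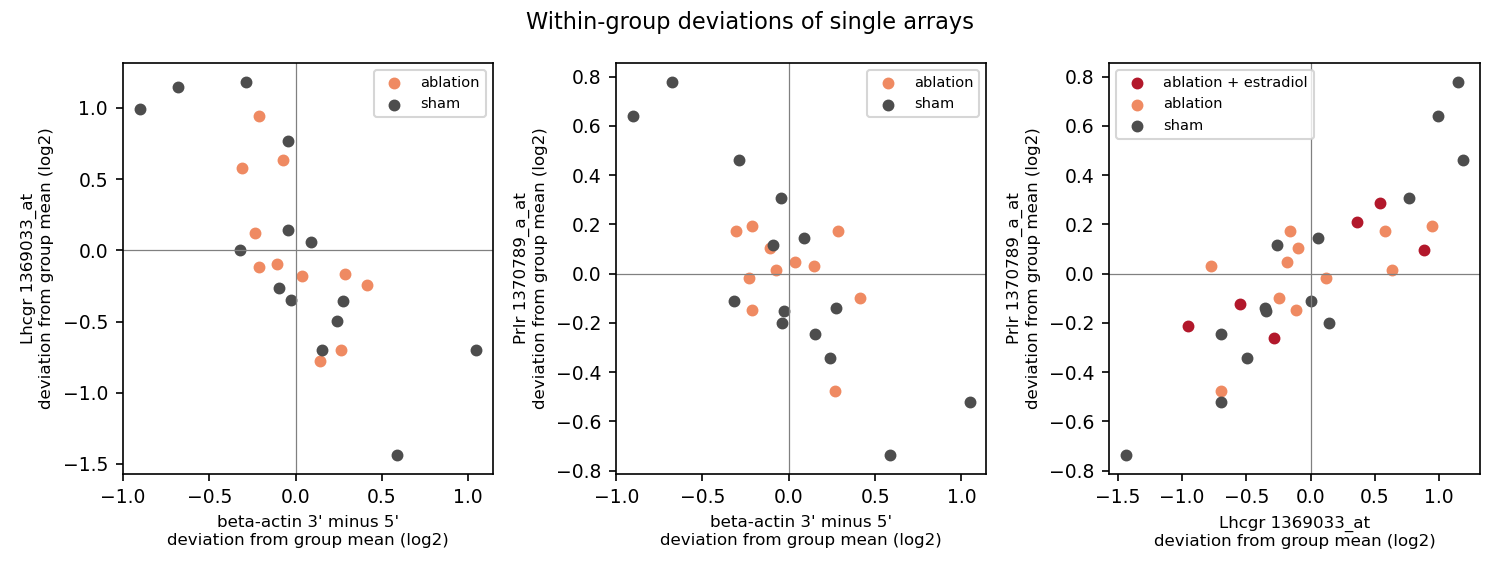
Deviations of single arrays from their group mean, on log2 scales, for Lhcgr 1369033_at and Prlr 1370789_a_at against the beta-actin 3' minus 5' difference (25 arrays) and against each other (31 arrays). Both fall as the beta-actin difference grows (r = -0.76 and -0.78) and they rise together (r = 0.84).

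By the same deviations, the genes most like each main probe set over 31 arrays were Sod3 (r = 0.72) and Ucp2 (0.71) for Insl3, Igdcc4 (0.84) and Taf4 (0.82) for Lhcgr, and C1qtnf7 (0.81) and Tm9sf3 (0.73) for Prlr, out of 11273 genes. Over the 14 sham arrays alone they were Mvb12a (0.92) and Timp2 (0.89) for Insl3, Il18 (0.91) and Dnaaf1 (0.88) for Lhcgr, and Idua (0.86) and Papss2 (0.84) for Prlr. No gene stood among the closest 5 of the same hormone or receptor in both lists.

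The other genes of mature Leydig cells show where Insl3 stood among them. Of 12 tested, 11 fell and 1 rose with ablation, with a median change of -1.54 against 0.00 over all genes. Over all 11387 genes 12.8% fell and 9.2% rose in that comparison, and 3.5% were called in ablation plus estradiol against ablation. Ces1d, a carboxylesterase, changed by -3.75, Cyp17a1, the 17-hydroxylase and lyase of androgen synthesis, by -2.20, and Cyp11a1, the side-chain cleavage enzyme, by -1.91. Hsd11b1, which activates glucocorticoid, averaged 1.35 ± 0.25 with ablation, against 3.35 ± 0.31 with sham. The gene that rose, as the main Lhcgr probe set did, was Hsd3b1, a 3-beta-hydroxysteroid dehydrogenase (0.39 ± 0.13, adjusted p = 0.0364). Star, which carries cholesterol into mitochondria, fell by 0.86 on the log2 scale. Adding estradiol lowered 3 of the 12 further, Cyp17a1 (-1.85), Ces1d (-1.49) and Cyp11a1 (-0.56), as it did Insl3, and raised Ephx1, an epoxide hydrolase (0.94). The other 8 did not pass that test, and the median was 0.09. The mean of the list was 0.78 to 1.09 in the arrays of ablation plus estradiol, 0.78 to 1.34 with ablation and 2.22 to 2.89 with sham.

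**Figure D5:**
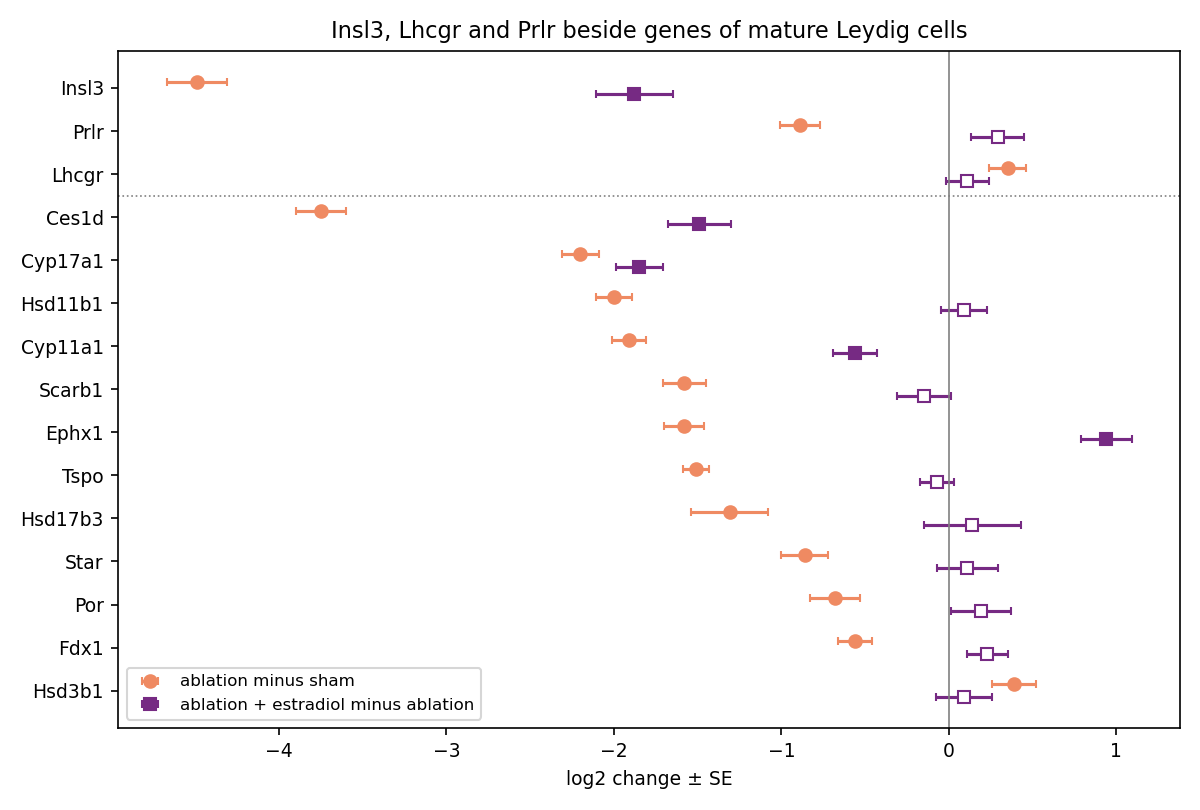
Log2 change with its SE for the main probe sets of Insl3, Prlr and Lhcgr and for 12 genes of mature Leydig cells; circles are ablation minus sham, squares are ablation plus estradiol minus ablation, and filled symbols passed the test. Insl3 had the lowest change of the 15 genes for ablation minus sham and lay beside Cyp17a1 (-1.85) for ablation plus estradiol minus ablation, where the changes of the main Lhcgr and Prlr probe sets did not pass the test.

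Markers of other cells of the testis are set beside the same shares (12.8% of all genes lower and 9.2% higher with ablation). With ablation 7 of 10 macrophage markers fell, and their mean per array was -0.12 to 0.30 against 0.10 to 0.87 in sham. Myoid markers fell in 5 of 7 (0.36 to 0.89 with ablation, 0.82 to 1.45 with sham), Sertoli markers rose in 3 of 7 (3.10 to 3.43 with ablation, 2.18 to 3.01 with sham), and endothelial markers fell in 2 of 6. Against sham, ablation plus estradiol lowered 5 of the 10 macrophage markers (-0.03 to 0.34 per array) and 5 of the 7 myoid markers (0.37 to 0.67), and raised 3 of the 7 Sertoli markers (2.63 to 3.36). In that comparison 11.9% of all genes fell and 5.3% rose. Spermatogonial markers rose in 4 of 6 and fell in 1 with ablation (-1.36 to -0.60 per array, against -2.34 to -0.91 with sham). Among those that rose, Sall4 and Ret were each above the filter level in 0 of 14 sham and 8 of 11 ablation arrays. Epcam was above it in 6 of 14 sham and 11 of 11 ablation arrays. The sizes of these rises, and the sham means of the list, therefore rest in part on values below that level. Of 5 markers of immature or stem Leydig cells, Pdgfra, a growth factor receptor (-0.55), and Hsd11b2, which inactivates glucocorticoid (-0.53), fell. The part of these shifts in the changes of Insl3, Lhcgr and Prlr was not tested. Spermatid markers varied widely between arrays: the mean of their 7 probe sets ran from -4.29 to -3.15 with ablation plus estradiol, from -3.52 to 0.36 with ablation and from -4.19 to 2.26 with sham. Over 31 arrays its correlation with the 6 probe sets stayed between -0.27 and 0.20, and none passed the test. The 0.20 was that of the main Lhcgr probe set, for which single groups differed in sign. There r was -0.38 within ablation plus estradiol, -0.60 within ablation and 0.46 within sham, values that were not tested.

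Of 31 genes tested that carry the LH receptor's signal, 5 fell and 2 rose with ablation, 22.6% against 22.1% of all genes, and the median was -0.02. The adenylyl cyclases Adcy6 (-0.61) and Adcy5 (-1.04), the protein kinase A subunit Prkar2b (-0.58), the cyclic AMP-responsive factor Crem (-0.43) and the cyclic AMP sensor Rapgef4 (-1.20) fell, while the phosphodiesterase Pde4b (0.46) and the transcription factor Creb1 (0.40) rose. Adcy5 was above the filter level in 1 of 11 ablation and 9 of 14 sham arrays, and Rapgef4 in 0 of 11 ablation and 8 of 14 sham arrays, so the sizes of their changes rest on values below that level. Adding estradiol changed 1 of the 31 (3.2%, against 3.5% of all genes), the adenylyl cyclase Adcy9 (-1.18), which averaged -2.47, below the filter level, with ablation plus estradiol and -1.29 with ablation. Gnas, the stimulatory G protein subunit, averaged 4.04 ± 0.36 with ablation plus estradiol, 4.45 ± 0.27 with ablation and 4.48 ± 0.40 with sham, and was called in no comparison.

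Among the other receptors of glycoprotein hormones and their relatives, Lgr6, a receptor of R-spondins, fell by 0.38 on the log2 scale with ablation (adjusted p = 0.0181), and Lgr4 changed by -0.05 ± 0.19 (adjusted p = 0.889). The FSH receptor gene Fshr, which neighbours Lhcgr, had no probe set named here.

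Of 11 class I cytokine receptors other than Prlr, 2 fell and 1 rose with ablation, 27.3% against 22.1% of all genes. Ghr, the growth hormone receptor, averaged -2.10 ± 0.32 with ablation plus estradiol, -2.60 ± 0.44 with ablation and -1.36 ± 0.33 with sham, so in both ablated groups the mean lay below the filter level. Its change with ablation was -1.24 ± 0.16 (adjusted p = 2.9e-07), with all 11 arrays below all sham arrays. Such separation was found for 1.4% of kept probe sets. Ghr was above the filter level in 0 of 11 ablation and 13 of 14 sham arrays. The size of its change and the separation therefore rest on values below that level. Il6r, an interleukin receptor chain, changed by -0.31 and Il2rg, the common gamma chain, by 0.29.

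Of 22 genes downstream of the prolactin receptor, 2 fell and 2 rose with ablation, 18.2% against 22.1% of all genes, with a median of -0.09, and with estradiol added limma called none of the 22, of which 6 had an unadjusted p under 0.05. Pik3r1 (-1.07) and the phosphatase Ptpn6 (-0.39) fell, and the adaptor Irs2 (0.50) and the kinase subunit Pik3ca (0.40) rose. Pik3r1 was above the filter level in 4 of 11 ablation and 13 of 14 sham arrays, and Ptpn6 in 5 of 11 ablation and 13 of 14 sham arrays. The receptor's own kinase Jak2 averaged 0.08 ± 0.23 with ablation plus estradiol, -0.03 ± 0.29 with ablation and 0.31 ± 0.39 with sham. Stat5a, Stat5b and the feedback inhibitor Cish were likewise called in no comparison. Stat5b lay near the filter level, above it in 3 of 6 ablation plus estradiol, 5 of 11 ablation and 8 of 14 sham arrays. Its lack of a call therefore says little. Prl, the gene of prolactin itself, had 1 probe set, which did not pass the filter.

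Of 24 transcription factors in the list made for Leydig cells, 4 fell and 3 rose with ablation (29.2%, against 22.1% of all genes). With estradiol added to ablation 3 rose and 0 fell (12.5%, against 0.7% of all genes higher and 3.5% called in either direction). The medians were 0.18 and 0.20. Nr5a1, the steroidogenic factor that activates the Insl3 promoter, averaged 2.02 ± 0.31 with ablation plus estradiol, 1.59 ± 0.20 with ablation and 1.86 ± 0.40 with sham, and was called in no comparison. Nr4a1, an LH-induced nuclear receptor, was called for ablation plus estradiol against sham (0.65 ± 0.22, adjusted p = 0.0444). Lhx9 and Cebpb fell with ablation (-0.94 and -0.96) and rose when estradiol was added (0.51 and 0.67), and Dmrt1 rose with estradiol (0.65). In whole testis, the cells in which Dmrt1 and the other listed factors changed were not tested.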

How the data were processed

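The data were 31 Affymetrix arrays of testis RNA. Per the submitters' processing notes the authors used MAS5; the deposited values are on a log scale, taken as log2 because a single array spans 15.8 to 19.3 units. The base, the scaling target and the MAS5 version are not given in the sources used here. Fold changes rest on log2. Values were used as deposited.

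Of 31099 rows, 57 were controls. A probe set was kept where it exceeded its array's 40th percentile in at least 6 arrays (21269 kept). Symbols came from the platform annotation, updated by Entrez number. In lists, each of 11387 genes stood as the 1 kept probe set whose mean was highest. limma 3.58.1 in R 4.3.3 fitted all 31 arrays with 3 groups and a variance trend, and p-values were adjusted over all kept probe sets; the pipeline was tested on simulated data. The number of arrays limits the precision.

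The 3 genes and the 17 gene lists (187 of 218 entries had a probe set named here) were chosen with earlier results of these data known. Named genes are the 3 genes, 21 genes fixed whatever their p, up to 4 called genes with the smallest adjusted p of each list and comparison, and the 5 genes most like each main probe set; genes outside these, such as Crem, Creb1, Lgr4 and Rln1, complete short counts and were chosen after their values were seen. Alternatives covered the filter, scaling, array weights, sham subsets, the replicate block and leaving out each array. Replicate numbers were not taken as pairs, so no block was used in the main fit. Neighbouring genes and promoters are from RefSeq, GRCr8, and 2 of the 4 promoter windows are printed.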

Additional observations from a re-analysis of the deposited data

Results flagged for a closer look

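In the 6 arrays of ablation plus estradiol, Insl3 in replicate 3 read -3.82, far below the other 5, which lay between -2.09 and -1.45. The gap to its nearest neighbour was 0.73 of the group's range. All 18 pairs of a probe set and a group of 4 to 10 arrays were examined in this way, and chance marks about 1 in 20 such pairs. Without replicate 3, Insl3 was -1.54 ± 0.18 (log2, SE) for ablation plus estradiol against ablation (adjusted p = 8.9e-07, limma) and -6.02 ± 0.18 against sham (adjusted p = 4.48e-24).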

How the results depend on the processing

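Apart from leaving out single arrays, the results that answer a comparison kept their direction and their side of the threshold in 170 cases, lost the call in 6, reversed in 4 and moved beyond 1.5 times in 2. Insl3 kept its call in all 3 treatment comparisons under every alternative tried.

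For ablation against sham, the main Lhcgr change of 0.35 was 0.19 (adjusted p = 0.368) against only the 4 irradiated-described sham arrays, 0.32 (adjusted p = 0.0741) without the extreme arrays of the first principal component, and -0.23 with probe set 1369033_at, which itself became 0.06 without those extreme arrays. For ablation plus estradiol against sham, Lhcgr gave 0.30 (adjusted p = 0.208) with that sham subset and 0.26 with probe set 1369033_at, and Prlr gave -0.53 (adjusted p = 0.0599) with the replicate block and -0.36 (adjusted p = 0.118) with probe set 1370789_a_at. For ablation plus estradiol against ablation, Prlr was -0.13 with probe set 1369493_at. Between the sham descriptions, where nothing was called, quantile normalization turned Insl3 to -0.02, Prlr to -0.03 and Prlr 1370789_a_at to -0.02. The causes of these differences were not tested.

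With only the 4 irradiated-described sham arrays, which are fewer samples, 2345 probe sets were called for ablation against sham (4128 with all 14) and 1702 for ablation plus estradiol against sham (3093 with all 14). Leaving out each array in turn gave 3724 to 4455, 2540 to 3197 and, for ablation plus estradiol against ablation (1173), 830 to 1242. In the same runs, changes for ablation against sham were -4.55 to -4.41 (Insl3), 0.30 to 0.39 (Lhcgr) and -0.97 to -0.82 (Prlr). For ablation plus estradiol against ablation they were -2.01 to -1.54, 0.03 to 0.19 and 0.21 to 0.37 in the same gene order, and against sham -6.50 to -6.02, 0.38 to 0.53 and -0.66 to -0.53, where Lhcgr missed the threshold without estradiol replicate 2 (0.38, adjusted p = 0.0596). Between the sham descriptions they were -0.08 to 0.12 for Insl3, -0.09 to 0.15 for Prlr 1370789_a_at and -0.10 to 0.53 for Lhcgr 1369033_at. Prlr 1370789_a_at passed for ablation plus estradiol against ablation with quantile normalization (0.52), median centring (0.52), only the compared groups (0.48), without the extreme arrays (0.50) and without sham replicate 1 (adjusted p = 0.0484), and against sham without sham replicate 4 (-0.42, adjusted p = 0.0461).

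Same-numbered arrays of different groups had deviations correlated between -0.086 and 0.047 (11 pairs of ablation and sham). The range was -0.18 to 0.059 for 6 pairs of ablation plus estradiol and ablation. For 6 pairs of ablation plus estradiol and sham it was -0.011 to 0.38, with 3 over 0.1. The numbers were not taken as pairs in the main fit. With the number as a block the calls numbered 3185, 878 and 2349 for ablation against sham, ablation plus estradiol against ablation and ablation plus estradiol against sham, with Insl3 at -4.45, -1.98 and -6.44 and Lhcgr at 0.39, 0.20 and 0.59. Where arrays read Insl3 near the filter level, signal over background limits the size of its fall.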
